A study of Homo sapiens with 6 samples.

Results

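The 10 genes described here belong to the microRNA pathway: the Argonautes AGO1, AGO2, AGO3 and AGO4, the Argonaute-binding scaffolds TNRC6A, TNRC6B and TNRC6C, and the processing genes DICER1, DROSHA and DGCR8. They were chosen by name, with earlier results of these data known, and are 10 of the 23686 genes in the deposited tables. All 10 passed the filter on low counts (10 or more reads in 2 or more libraries) and so were among the 14481 genes tested. The libraries are mRNA sequencing of A427 and HCC15, which are established human lung cancer cell lines, both labelled wild type. Each line was given 1 of 3 small interfering RNAs (siRNAs) for 48 h in medium with 5% serum. They were a control siRNA labelled Tax, LGR6 siRNA 2 and LGR6 siRNA 4. The LGR6 siRNAs are aimed at LGR6, a receptor for R-spondins. There is 1 library for each line and siRNA.

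MicroRNAs are cut from longer transcripts in the nucleus by the Microprocessor, in which DROSHA is the nuclease and DGCR8 its RNA-binding partner. DICER1 then cuts the exported hairpin in the cytoplasm, and the product is loaded into an Argonaute protein, where its seed, the bases near the 5′ end, pairs with target mRNAs. TNRC6 proteins bind the loaded Argonaute and recruit deadenylases and decapping factors, which silence the target. A transfected siRNA is loaded into the same Argonaute proteins, of which AGO2 is the one best known for cutting a fully matched target.

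The 6 libraries held 25546438 to 28987906 expected counts, and no pair of libraries was alike within sampling noise (chi-square per degree of freedom at least 57). LGR6 itself had 5, 0 and 0 reads in the A427 libraries (control, siRNA 2, siRNA 4) and 257, 39 and 77 reads in the HCC15 libraries. A count of 0 allows up to 3 reads, so the target could be followed in HCC15 and was close to the limit of detection in every A427 library. Of 7 epithelial marker genes, 4 to 5 had at least 10 reads in the A427 libraries and all 7 did in the HCC15 libraries. Another 12 markers of blood, endothelial, fibroblast and muscle cells summed to 47.7 to 54.31 counts per 1000000 (CPM) in A427 and 18.59 to 23.7 CPM in HCC15. The labels do not say that the libraries came from separate cultures, so the p-values measure only the spread between these samples. In the tests of 1 siRNA against another, that spread is how far the lines differed in their response, pooled over all 3 siRNAs. The edgeR fit used also draws each gene's spread toward that of other genes.

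Some members carry microRNAs of their own, so that their transcripts are both machinery and possible substrate. RefSeq (GRCh38.p14) places 3 hairpins inside members: MIR3173 in an intron of DICER1 at chr14, and MIR3618 and MIR1306 in exons of DGCR8 at chr22, as judged from the GENCODE 29 annotation. Their mature sequences are shown 5′ to 3′ to make clear which small RNAs these transcripts could yield, with the seed (bases 2 to 8) in capitals. The 5 seeds are all different. The mRNA libraries do not measure mature microRNAs.
hsa-miR-3173-5p, chr14:95137961-95137982, minus strand, DICER1 intron: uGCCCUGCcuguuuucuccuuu
hsa-miR-3173-3p, chr14:95137923-95137944, minus strand, DICER1 intron: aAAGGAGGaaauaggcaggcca
hsa-miR-3618, chr22:20085797-20085818, plus strand, DGCR8 untranslated exon: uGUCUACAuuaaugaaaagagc
hsa-miR-1306-5p, chr22:20086072-20086093, plus strand, DGCR8 coding exon: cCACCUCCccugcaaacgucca
hsa-miR-1306-3p, chr22:20086112-20086129, plus strand, DGCR8 coding exon: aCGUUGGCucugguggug

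The genes AGO4, AGO1 and AGO3 lie beside each other on chromosome 1, with the pseudogene CFAP97P1 between AGO1 and AGO3. Their promoters are separate, and AGO1 and AGO4 are shown because these neighbours had unlike values in the 6 libraries, with TNRC6A as the member that rose with siRNA 4. Each stretch is the 250 bases before the start site on the plus strand (RefSeq, GRCh38.p14), with matches to the GC box GGGCGG, or its reverse complement CCGCCC, in capitals.
AGO1, chr1:35882959-35883208: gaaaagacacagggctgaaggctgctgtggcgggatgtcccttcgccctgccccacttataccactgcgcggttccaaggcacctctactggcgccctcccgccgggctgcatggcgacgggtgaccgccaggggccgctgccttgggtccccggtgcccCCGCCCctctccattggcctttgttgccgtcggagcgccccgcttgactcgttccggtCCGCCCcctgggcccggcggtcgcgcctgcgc
AGO4, chr1:35807766-35808015: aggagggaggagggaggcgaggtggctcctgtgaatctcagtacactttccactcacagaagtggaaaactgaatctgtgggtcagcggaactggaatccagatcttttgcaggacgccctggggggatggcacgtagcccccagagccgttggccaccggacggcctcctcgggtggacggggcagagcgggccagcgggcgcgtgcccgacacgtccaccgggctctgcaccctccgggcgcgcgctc
TNRC6A, chr16:24729401-24729650: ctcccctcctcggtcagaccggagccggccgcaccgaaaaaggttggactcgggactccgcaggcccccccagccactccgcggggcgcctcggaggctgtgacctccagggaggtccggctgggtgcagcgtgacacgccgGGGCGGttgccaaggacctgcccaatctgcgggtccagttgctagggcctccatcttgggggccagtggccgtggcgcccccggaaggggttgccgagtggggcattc
The AGO1 stretch held 2 GC boxes and 25 CpG dinucleotides, the AGO4 stretch 0 and 20, and the TNRC6A stretch 1 and 21. At least 1 GC box was found in 42.6% of 35116 promoters of this length, whose median CpG count was 11. None of the 3 stretches held TATAAA or TTTATA, which 10.7% of all promoters did. Of the 10 members, 9 had a promoter entry, some with several start sites.

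Among the Argonautes, AGO1 was the member that rose with siRNA 2. Its level in A427 was 82.35, 125.0 and 69.1 CPM (control, siRNA 2, siRNA 4), and in HCC15 it was 79.59, 126.6 and 67.65 CPM. Both siRNA 2 libraries lay above the other 4 libraries, and the lines had nearly equal values under each siRNA. Against the control, AGO1 was 51.7% higher with siRNA 2 in A427 and 59.0% higher in HCC15, a fitted 1.553-fold difference (log2 0.635, SE 0.114, adjusted p = 0.01649, edgeR's quasi-likelihood test with Benjamini-Hochberg adjustment over all genes tested, 2 libraries against 2). Leaving out the A427 control, HCC15 control or HCC15 siRNA 2 library ended this call, with log2 differences of 0.606 to 0.658. Each of these fits left 1 library in a group, and fewer of all genes passed in them. AGO1 was the 1 member of 10 past the threshold for siRNA 2, beside 7.62% of all genes tested. In bulk RNA, a change in the mix of cells and a change in RNA per cell cannot be told apart.

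With siRNA 4, AGO1 was 16.1% below the control in A427 and 15.0% below it in HCC15, which did not pass the test (log2 -0.244, SE 0.115, adjusted p = 0.2001, edgeR, Benjamini-Hochberg). The difference between the 2 LGR6 siRNAs was the larger one. AGO1 was 44.7% lower with siRNA 4 than with siRNA 2 in A427 and 46.6% lower in HCC15, a fitted 1.84-fold difference (log2 -0.879, SE 0.115, adjusted p = 0.002776, edgeR, Benjamini-Hochberg). That comparison uses no control library.

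AGO2, the Argonaute best known for target cutting, had 69.13, 93.23 and 90.34 CPM in A427 (control, siRNA 2, siRNA 4) and 81.15, 63.67 and 86.78 CPM in HCC15. The siRNA 2 library was above the control in A427 and below it in HCC15. No AGO2 comparison between siRNAs passed the test, and the fitted difference was log2 0.046 (SE 0.18) for siRNA 2 and 0.232 (SE 0.179) for siRNA 4.

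AGO3, which can also be loaded with small RNAs, had 22.74, 23.34 and 28.42 CPM in A427 and 23.58, 22.58 and 34.02 CPM in HCC15. The siRNA 4 library was the highest of the 3 in each line. The difference from the control was 25.0% in A427 and 44.3% in HCC15 and did not pass the test (log2 0.428, SE 0.148, adjusted p = 0.09816, edgeR, Benjamini-Hochberg).

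AGO4, the other neighbour in the chromosome 1 group, had 57.04, 44.27 and 45.61 CPM in A427 and 21.22, 17.85 and 12.35 CPM in HCC15. The control library was the highest of the 3 in each line, and every A427 library was above every HCC15 library. AGO4 was 20.0% below the control with siRNA 4 in A427 and 41.8% below it in HCC15 (log2 -0.523, SE 0.169, adjusted p = 0.08086, edgeR, Benjamini-Hochberg), which did not pass. Without the A427 siRNA 4 library the fitted value was log2 -0.811, which rests on the HCC15 library alone for siRNA 4. With siRNA 2 the values were 22.4% and 15.9% below the control (log2 -0.308, SE 0.168, adjusted p = 0.3028, edgeR, Benjamini-Hochberg).

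**Figure D1:**
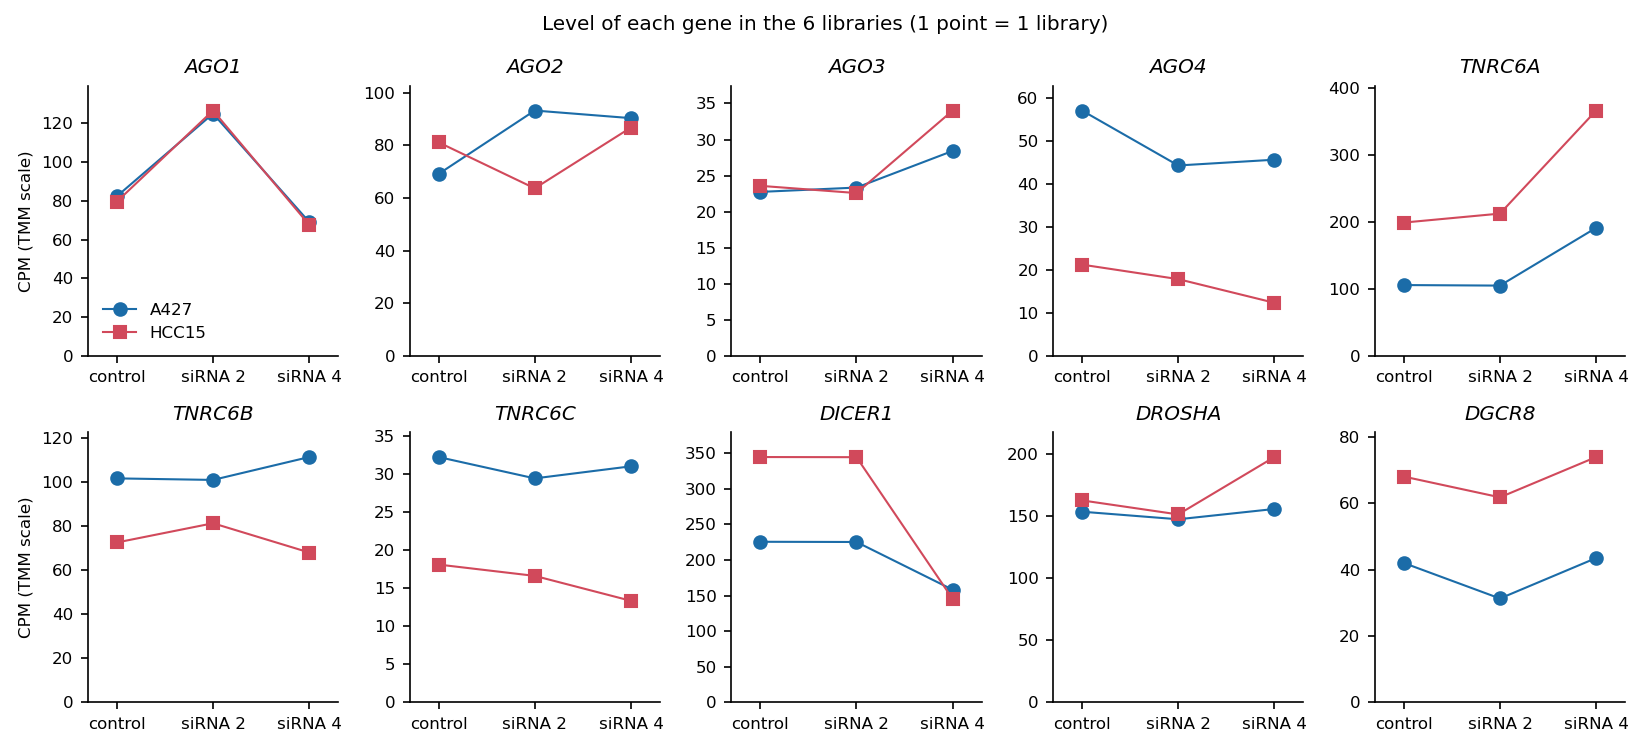
Level of each of the 10 genes in CPM (linear axis from 0, TMM-scaled) under the control siRNA, LGR6 siRNA 2 and LGR6 siRNA 4, with 1 point per library and a line joining the libraries of A427 and of HCC15. AGO1 peaks with siRNA 2 at 125.0 and 126.6, TNRC6A is highest with siRNA 4 at 191.3 and 366.4, and DICER1 is lowest with siRNA 4 at 158.1 and 145.1.

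Of the TNRC6 scaffolds, TNRC6A rose with siRNA 4 and neither of its relatives passed a test between siRNAs. TNRC6A had 105.8, 105.0 and 191.3 CPM in A427 and 199.1, 212.5 and 366.4 CPM in HCC15. The control and siRNA 2 libraries of a line were close together, and the siRNA 4 library stood above them. The increase over the control was 80.9% in A427 and 84.1% in HCC15, a fitted 1.825-fold (log2 0.868, SE 0.111, adjusted p = 0.002931, edgeR, Benjamini-Hochberg, 2 libraries against 2). Without the HCC15 control library the call ended, with the fitted value at log2 0.84. That fit left 1 control library, and fewer of all genes passed in it. Against siRNA 2 the increase was 82.2% and 72.4% (log2 0.825, SE 0.111, adjusted p = 0.003062, edgeR, Benjamini-Hochberg).

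TNRC6B had 101.8, 101.1 and 111.5 CPM in A427 and 72.67, 81.41 and 68.12 CPM in HCC15, and TNRC6C had 32.29, 29.48 and 31.07 CPM in A427 and 18.14, 16.65 and 13.37 CPM in HCC15. For siRNA 4 against the control, the fitted differences were log2 0.024 (SE 0.133) for TNRC6B and -0.232 (SE 0.161) for TNRC6C. TNRC6B was the least variable member within a line, with a standard deviation of 0.107 on the log2 scale over the 3 siRNAs, and 91.9% of genes with a mean of at least 1 CPM varied at least as much. TNRC6A had 0.49 on the same measure, which 15.5% of these genes reached.

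Of the processing genes, DICER1 fell with siRNA 4, while DROSHA and DGCR8 passed no test between siRNAs. DICER1 had 225.4, 225.1 and 158.1 CPM in A427 and 344.3, 344.1 and 145.1 CPM in HCC15. The siRNA 2 value was 0.1% below the control in each line, and the siRNA 4 library was below both. The fall was 29.9% in A427 and 57.9% in HCC15, a fitted 1.82-fold (log2 -0.864, SE 0.184, adjusted p = 0.02088, edgeR, Benjamini-Hochberg, 2 libraries against 2). For siRNA 2 the fitted difference from the control was log2 -0.001 (SE 0.182). DICER1 was lower with siRNA 4 than with siRNA 2 by 29.8% and 57.8% (log2 -0.863, SE 0.184, adjusted p = 0.01716, edgeR, Benjamini-Hochberg).

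The DICER1 fall was larger in HCC15. The fit without the A427 siRNA 4 library, which rests on the HCC15 library alone for siRNA 4, gave log2 -1.247. Leaving out the A427 control, HCC15 control or HCC15 siRNA 4 library ended the call against the control. Each of these fits left 1 library in a group, and fewer of all genes passed in them. Limma on log2(TPM + 1) and log2(TPM + 0.1) also ended the call, at log2 -0.796 and -0.814 (adjusted p of 0.06715 and 0.07681, limma, Benjamini-Hochberg). Against siRNA 2 it ended without the HCC15 siRNA 2 or the HCC15 siRNA 4 library (adjusted p of 0.1283 and 0.1139, edgeR, Benjamini-Hochberg). Without the HCC15 siRNA 4 library the fitted value was log2 -0.508, and -0.506 against siRNA 2, where the fit without the A427 siRNA 4 library gave -1.246. Each of these fits holds 1 siRNA 4 library. DICER1 was the most variable member within a line, with a standard deviation of 0.55 on the log2 scale, which 11.4% of genes with a mean of at least 1 CPM reached.

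DROSHA, the Microprocessor nuclease, had 153.5, 147.4 and 155.7 CPM in A427 and 162.6, 151.3 and 197.5 CPM in HCC15. Its siRNA 4 value was 1.4% above the control in A427 and 21.5% above it in HCC15 (log2 0.153, SE 0.123). DGCR8 had 42.05, 31.34 and 43.54 CPM in A427 and 68.11, 61.85 and 74.0 CPM in HCC15, the siRNA 2 library being the lowest of the 3 in each line. That difference from the control did not pass (log2 -0.277, SE 0.132, adjusted p = 0.2424, edgeR, Benjamini-Hochberg), nor did the one between the LGR6 siRNAs (log2 0.361, SE 0.132, adjusted p = 0.09925, edgeR, Benjamini-Hochberg).

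By role, siRNA 4 thus gave a rise in 1 of 3 TNRC6 genes, a fall in 1 of 3 processing genes and no call in 4 Argonautes. These are 2 of 10 members, beside 12.5% of all genes tested that passed for siRNA 4 against the control. Between the LGR6 siRNAs 3 of 10 members passed (AGO1, TNRC6A and DICER1), beside 16.5% of all genes. The median member difference was log2 0.054 for siRNA 4 and -0.006 for siRNA 2, and the medians over all genes were -0.005 and -0.014. With siRNA 4, 9 of 10 members differed from the control in the same direction in both lines, TNRC6B being the exception, where 69.6% of all genes did so. With siRNA 2 it was 6 of 10, beside 65.2%, and between the LGR6 siRNAs 6 of 10, beside 67%. The 2 LGR6 siRNAs were compared with the same control libraries, so their values are set side by side only. The summed level of the 7 epithelial markers was 890.6, 854.5 and 697.8 CPM in A427 and 5280, 6564 and 3291 CPM in HCC15 under the control, siRNA 2 and siRNA 4. With siRNA 4, 3 of these 7 fell, the keratins KRT8, KRT18 and KRT19. The other 4 did not pass: KRT7 was at log2 -0.736, CDH1 at -0.302, EPCAM at -0.297 and CLDN4, in the opposite direction, at 0.504. The part of the markers in the member values was not tested.

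**Figure D2:**
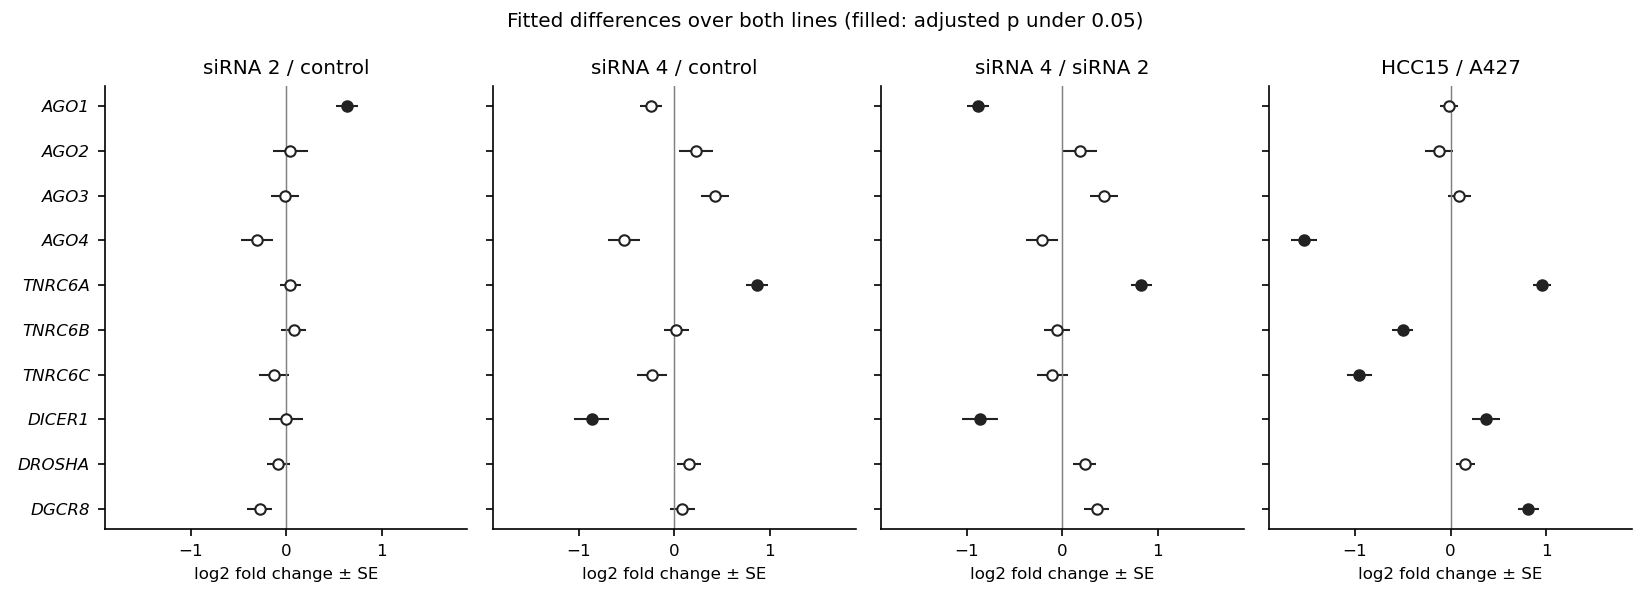
Log2 fold change of each of the 10 genes with its standard error, fitted with edgeR over both lines, for LGR6 siRNA 2 against control, LGR6 siRNA 4 against control, LGR6 siRNA 4 against siRNA 2 and HCC15 against A427, with filled points where the adjusted p was under 0.05. Between siRNAs the filled points are AGO1 at 0.635 for siRNA 2, TNRC6A at 0.868 and DICER1 at -0.864 for siRNA 4, and AGO1 at -0.879, TNRC6A at 0.825 and DICER1 at -0.863 between the LGR6 siRNAs.

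Treating both LGR6 siRNAs as 1 silenced group of 4 libraries against 2 controls, 0 of 10 members passed, as did 0 of 14481 genes (0%, edgeR, Benjamini-Hochberg). At an unadjusted p under 0.05 there were 1512 genes and 0 members, and DESeq2 called 387 genes and 0 members. The smallest adjusted p among members was for AGO4 (log2 -0.416, SE 0.183, adjusted p = 0.5074, edgeR, Benjamini-Hochberg). AGO1 averaged to log2 0.262 (SE 0.324), TNRC6A to 0.513 (SE 0.311) and DICER1 to -0.366 (SE 0.341), with the wide errors of genes whose 2 siRNAs differed. When the spread was taken within each siRNA number, TNRC6A passed (log2 0.455, adjusted p = 0.02684, edgeR, Benjamini-Hochberg). TNRC6A was at log2 0.043 with siRNA 2, which did not pass, and 0.868 with siRNA 4, and 0.455 is the average of these. It was 1 of 10 members, where 1298 of 14481 genes passed, so the members' count was near the share over all genes. The test of whether the response to silencing differed between lines called 0 members and 0 genes (0%, edgeR, Benjamini-Hochberg), with 78 genes and 0 members at an unadjusted p under 0.05. The member estimates ran from log2 -0.518 (SE 0.389) for AGO2 to 0.163 (SE 0.426) for DGCR8. This test pools the 2 LGR6 siRNAs, so it does not address whether the DICER1 fall with siRNA 4 differed between lines, which was not tested.

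The lines themselves differed in 6 of 10 members, beside 76.5% of all genes tested. AGO4 was 2.895-fold lower in HCC15 than in A427 (log2 -1.534, SE 0.14, adjusted p = 1.481e-05, edgeR, Benjamini-Hochberg, 3 libraries against 3). TNRC6A was 1.939-fold higher in HCC15 (log2 0.956, SE 0.091, adjusted p = 1.877e-05, edgeR, Benjamini-Hochberg), while TNRC6C was 1.937-fold lower (log2 -0.954, SE 0.132) and TNRC6B 1.417-fold lower (log2 -0.503, SE 0.109), both past the test. The scaffolds therefore differed between lines in opposite directions. DGCR8 was 1.756-fold higher in HCC15 (log2 0.813, SE 0.108, adjusted p = 0.0001469, edgeR, Benjamini-Hochberg), and its partner DROSHA did not pass (log2 0.155, SE 0.101).

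DICER1 was called higher in HCC15 by a small margin (log2 0.37, SE 0.15, adjusted p = 0.04945, edgeR, Benjamini-Hochberg). HCC15 was above A427 with the control siRNA and siRNA 2 and below it with siRNA 4, and the call ended under 7 of 13 alternatives. These were scaling by library size alone, both fits on TPM, and leaving out any 1 of the control and siRNA 2 libraries, with log2 values of 0.232 to 0.277. Without the A427 siRNA 4 library or the HCC15 siRNA 4 library the difference was larger, at log2 0.612 and 0.642 (adjusted p of 0.001375 and 0.001089, edgeR, Benjamini-Hochberg). Leaving out 1 line's library of an siRNA leaves the line comparison to the pairs of the other siRNAs. The fits without either line's library of the same siRNA are therefore not separate checks. AGO1, AGO2 and AGO3 did not pass between lines, at log2 -0.02, -0.125 and 0.09. The 3 libraries of a line lay wholly above those of the other for 5 of 10 members, beside 68.1% of all genes, the others being AGO1, AGO2, AGO3, DICER1 and DROSHA.

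Levels can be compared between genes only per transcript length, for which the deposited transcripts per 1000000 (TPM) were used. In A427 the highest median over the 3 libraries was DROSHA at 61.11 TPM (range 59.76 to 61.94), followed by AGO2 at 56.72 (43.39 to 59.62) and DICER1 at 46.42 (35.58 to 48.67). TNRC6A (26.92 TPM), AGO1 (23.42) and DGCR8 (20.18) came next. AGO3 (14.29), AGO4 (13.75) and TNRC6B (12.03) followed, and TNRC6C was lowest at 6.73 TPM. Neighbours in this order overlapped in range over the 3 libraries, except DROSHA above AGO2, AGO4 above TNRC6B and TNRC6B above TNRC6C.

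In HCC15 the order began with DICER1 at 66.17 TPM (27.87 to 71.05), DROSHA at 60.35 (60.28 to 69.96) and TNRC6A at 53.53 (46.73 to 82.11). AGO2 followed at 47.58 TPM (40.08 to 48.56), DGCR8 at 30.45 and AGO1 at 21.11. AGO3 (13.62 TPM), TNRC6B (7.98), AGO4 (5.39) and TNRC6C (3.61) were lowest. Here neighbours overlapped except AGO2 above DGCR8, AGO3 above TNRC6B and TNRC6B above AGO4. DICER1 with siRNA 4 took the lowest value of its range in each line.

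AGO2 made up the greatest part of the summed Argonaute TPM in all 6 libraries, from 42.14% in HCC15 with siRNA 2 to 55.67% in HCC15 with siRNA 4. The AGO1 part was 23.97%, 29.26% and 18.30% in A427 and 24.02%, 37.87% and 19.64% in HCC15 under the control, siRNA 2 and siRNA 4. AGO1 was thus the second Argonaute in every library but HCC15 with siRNA 4, where AGO3 had 20.89%. AGO4 held 10.99% to 17.62% in A427 and 3.806% to 6.793% in HCC15. The summed Argonaute level was 97.69, 123.70 and 107.24 TPM in A427 and 87.89, 95.11 and 87.23 TPM in HCC15.

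By reads, which are not corrected for length, AGO1 led in A427 with the control siRNA (35.61%) and siRNA 2 (43.72%) and in HCC15 with siRNA 2 (54.87%). TNRC6A made up 58.35%, 59.22% and 70.83% of the summed TNRC6 TPM in A427 and 80.06%, 80.29% and 89.45% in HCC15. The TNRC6 sum was 45.64, 45.46 and 67.91 TPM in A427 and 58.37, 66.67 and 91.79 TPM in HCC15, highest with siRNA 4 in each line.

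**Figure D3:**
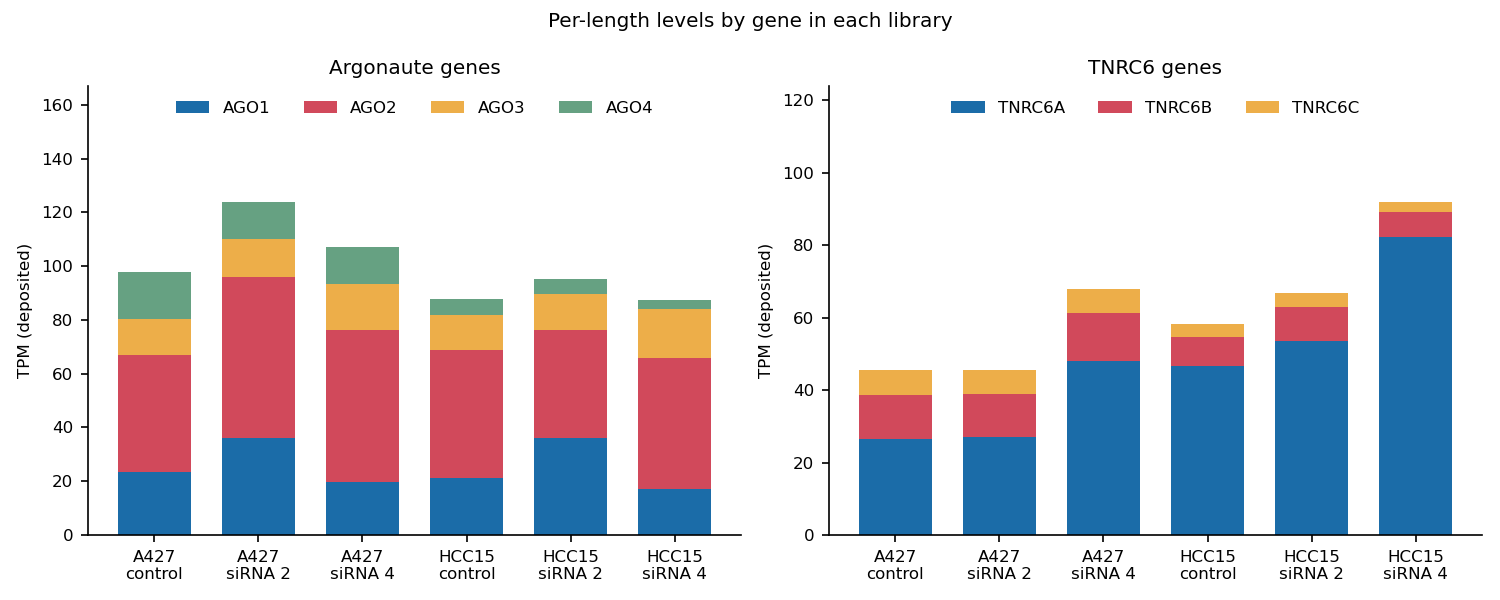
Stacked bars of the TPM of the 4 Argonautes (left) and of the 3 TNRC6 genes (right) in each of the 6 libraries, on a linear axis from 0. AGO2 is the thickest Argonaute band in every bar, the AGO1 band is widest with siRNA 2, and the TNRC6 bars are tallest with siRNA 4 at 67.91 TPM in A427 and 91.79 TPM in HCC15.

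The partners of DICER1 and the chaperones that load Argonaute were tested as a list of 13 genes. With siRNA 2, 1 rose and 3 fell, beside 7.62% of all genes called, and with siRNA 4, 1 rose and 0 fell, beside 12.5%, so that the siRNA 4 count was no higher than that share. The gene that rose with each was FKBP4, an HSP90 co-chaperone, at 199.6, 683.7 and 556.5 CPM in A427 and 128.1, 458.4 and 578.3 CPM in HCC15. It was 3.494-fold higher with siRNA 2 and 3.573-fold higher with siRNA 4 (adjusted p of 0.00327 and 0.001418, edgeR, Benjamini-Hochberg).

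The genes that fell with siRNA 2 were FKBP5 (log2 -1.169), another HSP90 co-chaperone, TSN (log2 -1.107), a subunit of the nuclease that removes passenger strand fragments, and PTGES3 (log2 -0.991), the co-chaperone p23. TSN had 96.73, 57.73 and 102.2 CPM in A427 and 173.3, 62.2 and 161.4 CPM in HCC15, with the siRNA 2 library lowest in each line. The RNA-binding partners of DICER1 did not pass with either siRNA. TARBP2 was at log2 -0.375 (SE 0.132) with siRNA 2 and -0.115 (SE 0.131) with siRNA 4. PRKRA was at -0.397 (SE 0.125) and -0.22 (SE 0.124). These and the exporter XPO5, described next, were picked for their roles after their values were seen. The list's median was log2 0.012 for siRNA 2 and 0.075 for siRNA 4.

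Nuclear processing partners and export factors were 13 genes, of which 1 rose with siRNA 2 (7.62% of all genes called) and, with siRNA 4, 1 rose and 3 fell (12.5% of all genes called). The siRNA 2 count was at that share. KHSRP, which binds the terminal loop of some precursors, rose with each (log2 0.525 and 0.409), with siRNA 4 by a small margin (adjusted p = 0.04976, edgeR, Benjamini-Hochberg). TARDBP, an RNA-binding protein found with the Microprocessor, fell with siRNA 4 (log2 -0.632, SE 0.114), as did the cap-binding subunit NCBP2 (-0.518). The helicase DDX5 fell by a small margin (-0.423, adjusted p = 0.04943, edgeR, Benjamini-Hochberg). XPO5, which exports precursors to the cytoplasm, did not pass with siRNA 2 (log2 0.468, SE 0.145) or siRNA 4 (log2 0.338, SE 0.145) and was 1.659-fold higher in HCC15 than in A427. The list's median was log2 0.116 and 0.012 for the 2 siRNAs.

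Downstream of TNRC6, the deadenylation, decapping and decay list had 27 genes. With siRNA 2, 2 rose and 5 fell, with siRNA 4, 4 rose and 1 fell, and between the LGR6 siRNAs 6 were higher with siRNA 4 and 0 lower. The shares of all genes called were 7.62%, 12.5% and 16.5%, and the counts for siRNA 4 and between the LGR6 siRNAs lay near theirs. CNOT11, a subunit of the CCR4-NOT deadenylase, fell with siRNA 2 (log2 -1.352) and, by a small margin, with siRNA 4 (log2 -0.648, adjusted p = 0.04616, edgeR, Benjamini-Hochberg). The decapping enzyme DCP2 had 182.4, 90.41 and 175.6 CPM in A427 and 188.5, 70.76 and 148.5 CPM in HCC15, a fall with siRNA 2 of log2 -1.215 (SE 0.134, adjusted p = 0.003921, edgeR, Benjamini-Hochberg).

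Its activator DCP1A had 27.94, 23.49 and 61.96 CPM in A427 and 22.32, 13.78 and 56.19 CPM in HCC15, a rise with siRNA 4 of log2 1.245 (SE 0.172, adjusted p = 0.004017, edgeR, Benjamini-Hochberg). The siRNA 4 library was above the others in each line. Among the enhancers of decapping, EDC3 fell with siRNA 2 (log2 -0.86) and EDC4 rose with siRNA 2 (0.806) and siRNA 4 (0.524). The list's median was log2 -0.011 and 0.059.

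Of 11 genes for tailing and turnover of small RNAs, 1 rose with each siRNA: the exonuclease ERI1 with siRNA 2 (log2 0.573) and the uridylyltransferase TUT7, listed as ZCCHC6, with siRNA 4 (log2 0.915). The ERI1 call was by a small margin (adjusted p = 0.0482, edgeR, Benjamini-Hochberg). None fell, and these counts were near the 7.62% and 12.5% of all genes called. The list's median was log2 0.073 and 0.198. Of 13 Argonaute-associated cofactors tested, GEMIN4 (log2 0.648 and 0.492) and SND1 (0.463 and 0.549) rose with each siRNA and 0 fell, beside the same shares of all genes. PIWIL4 was the 1 of 4 PIWI genes, the germline Argonautes, with enough reads to test. It did not pass with either siRNA and was higher in HCC15 (log2 1.571).

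Between lines, 5 of the 13 nuclear factors were higher in HCC15 and 1 lower, against 6 and 3 of the 13 DICER1 partners and loading factors. In the tailing list the counts were 6 and 2 of 11, in the decay list 13 and 6 of 27, and among cofactors 7 and 4 of 13. With 76.5% of all genes called between lines, most of these lists were at or below the share over all genes. Each list's median was above 0, from log2 0.038 for the DICER1 partners to 0.321 for the tailing list, beside -0.028 over all genes tested.

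**Figure D4:**
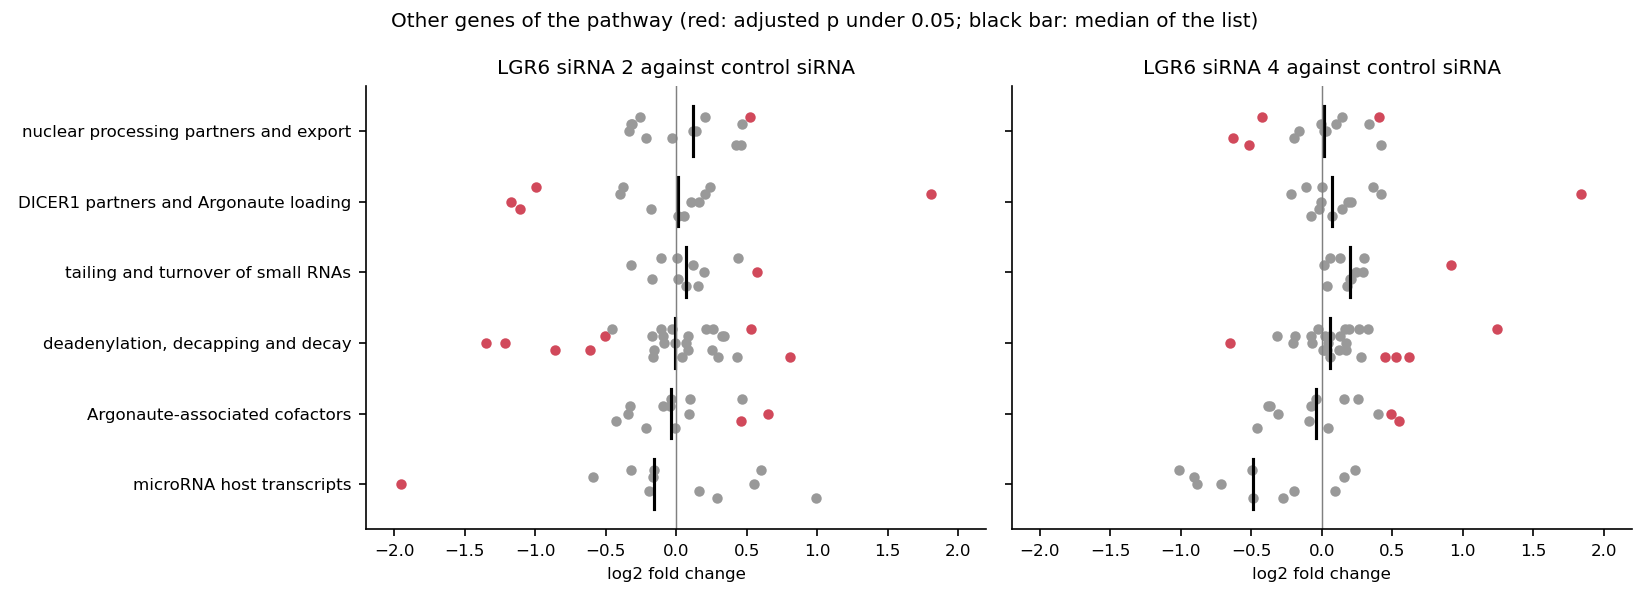
Log2 fold change of every tested gene of the microRNA pathway lists, except the PIWI genes, for each LGR6 siRNA against the control siRNA. There is 1 point per gene, red where the adjusted p was under 0.05, and the list median is a bar. FKBP4 lies farthest up at 1.805 and 1.837, and MIR31HG at -1.948, CNOT11 at -1.352 and DCP2 at -1.215 lie lowest with siRNA 2.

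Host transcripts of microRNA hairpins, from which the Microprocessor starts, were measured for 15 of 21 listed genes and tested for 11. With siRNA 2, 0 rose and 1 fell, beside 7.62% of all genes called, and with siRNA 4, 0 of 11 passed, beside 12.5%. The transcript that fell was MIR31HG, host of the hairpin for miR-31 (log2 -1.948, SE 0.275, adjusted p = 0.008217, edgeR, Benjamini-Hochberg). Its reads were 615, 121 and 290 in A427 and 39, 20 and 27 in HCC15. H19 was lower with siRNA 4 than with siRNA 2 (log2 -1.273, SE 0.306), and the difference was almost all in A427, with 195, 283 and 105 reads there and 17, 17 and 14 in HCC15. It was 11.64-fold lower in HCC15 than in A427. The list's median was log2 -0.155 for siRNA 2 and -0.488 for siRNA 4. Between lines, 2 of 11 were higher in HCC15 and 6 lower, close to the 76.5% of all genes called.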

How the data were processed

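The authors deposited a table of expected counts and a table of TPM (transcripts per 1000000) for 6 libraries, 1 for each of 2 cell lines and 3 siRNAs. Per the submitters' processing notes, FastQC 0.11.1, STAR 2.5.3a, RSEM 1.3.3 and the hg19 build were used. The annotation and strand setting are not given in the sources used here, so overlapping and antisense genes cannot be told apart. Expected counts, of which 5.746% to 6.291% per library were not whole, were rounded. Genes were kept at 10 or more reads in 2 or more libraries and tested with edgeR 4.0.16 (quasi-likelihood, TMM scaling, R 4.3.3), and Benjamini-Hochberg adjusted p-values under 0.05 counted as past the threshold. CPM values are counts per 1000000 after TMM scaling. The siRNA and line comparisons came from a fit of line plus siRNA (2 residual degrees of freedom), silencing from line plus arm (3), and the difference between lines from their interaction (2).

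Alternatives were RLE factors, library size alone, no filter, DESeq2 1.42.0, limma 3.58.1 (voom, or log2(TPM + 1) and log2(TPM + 0.1) with at least 1 TPM in 2 libraries), each library left out, and the siRNA number as a block. The fit was also run on simulated data in which every gene had the same spread. The simulated lines did not differ in their siRNA response beyond planted changes, so this run does not check the spread used in the siRNA tests. Within-line spread is the standard deviation of log2(CPM + 0.1) about the line mean. Members and gene lists were chosen with earlier results of these data known. Named genes are all members, up to 4 genes past the threshold and 2 others per list and comparison, and the 3 genes most like each of the most variable members. Outside this rule, TARBP2, PRKRA and XPO5 were named for their roles, LGR6 as the target and the epithelial markers as a list. Sequences are from RefSeq tables on GRCh38.p14, not the build of the counts, and a motif match is a description only.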

Additional observations from a re-analysis of the deposited data

How the results depend on the processing

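With 1 library per line and siRNA, each call rests on agreement between 2 lines. Between siRNAs, leaving out a library of either group compared left 1 library in that group. Fewer of all genes passed in each such fit, so a call lost there need not be particular to the member. Of 682 alternative values for members, 617 had the same direction and side of the threshold, 18 were no longer past it, 2 were newly past it and 45 changed sign. None of the sign changes was in a result past the threshold, and the original values of those that changed sign were at most 0.232 in size (log2). AGO1 and TNRC6A between the LGR6 siRNAs passed under all 13 alternatives. Scaling by library size alone moved the median of all genes between lines to -0.13, and TPM to -0.106 and -0.117.

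The number of genes past the threshold was 678 for siRNA 2 (1104 in the original fit) and 1145 for siRNA 4 (1814) with log2(TPM + 0.1). With a library left out it ran from 4 to 1341 for siRNA 2, 118 to 2075 for siRNA 4 and 646 to 2126 between the LGR6 siRNAs (2395). For silencing over both lines it was 387 with DESeq2, 1 with each TPM fit and 1298 with the replicate block, in which 1 member passed. Members past the threshold for siRNA 4 were 1 with each TPM fit and 0 to 3 with a library left out, and for siRNA 2 they were 0 to 1.

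Signs that changed were as follows (log2, in the order of the settings named). Between lines, AGO3 was -0.013 with library size alone and -0.008 and -0.009 with TPM + 1 and TPM + 0.1, and AGO1 was 0.014 with no filter. For siRNA 2, AGO3 was 0.009, 0.01, 0.01, 0.049 and 0.053 with RLE, library size, DESeq2 and both TPM fits, and DICER1 was 0.021, 0.023, 0.002, 0.021, 0.0, 0.084 and 0.085 with RLE, library size, no filter, DESeq2, voom and both TPM fits. For siRNA 4, TNRC6B was -0.017 and -0.022 with TPM.

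With a library left out, line differences ran from -0.04 to 0.026 for AGO1 and -0.272 to 0.086 for AGO2. For siRNA 2 the ranges were -0.116 to 0.089 (AGO3), -0.196 to 0.193 (DICER1), -0.279 to 0.357 (AGO2), -0.004 to 0.088 (TNRC6A), -0.067 to 0.22 (TNRC6B) and -0.17 to 0.005 (DROSHA). For siRNA 4 they were -0.138 to 0.178 (TNRC6B) and -0.016 to 0.518 (AGO2). Between the LGR6 siRNAs they were -0.116 to 0.521 (AGO2), -0.5 to 0.019 (AGO4), -0.214 to 0.101 (TNRC6B) and -0.315 to 0.078 (TNRC6C). For silencing they were -0.106 to 0.411 (AGO2), -0.004 to 0.107 (TNRC6B), -0.054 to 0.109 (DROSHA) and -0.185 to 0.019 (DGCR8), and for its difference between lines -0.054 to 0.42 (DGCR8). That difference could not be fitted without either control library. The cause of these changes was not tested.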

Other observations

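The 3 genes whose log2 values lay closest to DICER1 within each line, over the 6 libraries, were EML1 (distance 0.0639), ZYG11B (0.118) and TRPV1 (0.133), where the distance is the root of the summed squared differences after each line's mean is removed. EML1, a microtubule-associated protein, had 27.87, 28.06 and 18.96 CPM in A427 and 85.87, 81.73 and 35.42 CPM in HCC15 under the control, siRNA 2 and siRNA 4. The genes closest to TNRC6A were PI4KB (0.0811), LINC00265 (0.1063) and KIF3B (0.1165). PI4KB, a phosphatidylinositol kinase of the Golgi, had 83.27, 81.45 and 147.4 CPM in A427 and 64.42, 63.95 and 112.1 CPM in HCC15. Those closest to AGO1 were COX10-AS1 (0.1319), SLC2A4RG (0.1375) and SLC16A14 (0.1521). They were found by searching all genes tested, so the likeness is a description with no test.

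The ratio of expected counts to TPM gives, up to a library constant, the mean length of the transcripts that RSEM assigned to a gene. For DICER1 this length was 8.5% below the control in A427 with siRNA 4, where 0.895% of 9829 genes moved at least as far, and 4.2% below it in HCC15 with siRNA 4 (2.75% of genes). With siRNA 2 it was 3.02% below in A427 and 0.0489% below in HCC15. For the other 9 members it stayed within -0.29% to 0.87% of the control. Which DICER1 transcripts the tables hold was not analysed here.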
